A study of Rattus norvegicus with 17 samples.

Results

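The genes described here are 34 genes of fatty acid oxidation and of the peroxisome proliferator-activated receptors (PPARs). All 34 were found among the 14506 rat genes that had a probe set with 1 gene symbol, and the probe set with the highest mean stood for each gene. They cover uptake and the carnitine shuttle (8 genes), beta-oxidation (11 genes), the electron transfer flavoprotein and its dehydrogenase (3 genes), uncoupling proteins (2 genes), regulators (5 genes), and lipid storage with thioesterases (5 genes). Ventricular myocytes of newborn Sprague-Dawley rats, given as 5 days in culture, received plasma or phenylephrine, and their RNA was read on 17 Affymetrix arrays. Uremic plasma, the plasma of people with kidney failure, was added at 10% and had been drawn either before nocturnal hemodialysis (NHD), a dialysis given overnight (6 arrays), or after it (6 arrays). The other cultures received control plasma (3 arrays) or phenylephrine (2 arrays), which acts on alpha-adrenergic receptors and is widely used to induce growth of cultured cardiac myocytes. The share of control plasma and the medium of the phenylephrine cultures are not given in the labels. The sample titles call the replicates biological and do not say what was repeated, whether the culture, the plasma donor or both, so the p-values measure the spread between these samples only. The number of arrays limits the precision, most of all with phenylephrine.

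The heart draws most of its energy from fatty acids once it has matured after birth, when it shifts away from glucose and lactate. Fatty acids are taken up, activated to acyl-CoA, carried into mitochondria by the carnitine shuttle and shortened by the enzymes of beta-oxidation, whose electrons pass through the electron transfer flavoprotein into the respiratory chain. PPAR alpha and PPAR delta are nuclear receptors that bind fatty acids, pair with retinoid X receptors and, with PGC-1 coactivators and estrogen-related receptors, turn on many of these genes.

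Myocyte markers were bright on every array, with the 14 ventricular markers averaging 12.55 to 13.05 log2 units per array, while the 8 adipocyte markers averaged 5.90 to 6.16, below the array medians of 6.89 to 7.03. Before NHD arrays were the most spread. On the first principal component of all probe sets, before replicate 5 lay among the control arrays and before replicate 6 lay beyond the after NHD arrays. Before replicate 4 and after replicate 4 were the nearest pair of all arrays (SD of their difference 0.205 log2 units). Control replicates 1 and 3 and before replicates 1 and 5 had the narrowest spread of values over their probe sets (SD 2.244 to 2.269), and all other arrays had an SD of 2.293 or more. Fibroblast markers varied between arrays of the same group. Their mean over 12 genes was 8.70 to 8.80 with control plasma, 7.81 to 10.08 before NHD, 8.05 to 9.99 after NHD, and 10.29 and 10.07 with phenylephrine.

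With plasma from after NHD, 15 of the 34 genes were higher than with control plasma and 0 were lower (limma, Benjamini-Hochberg adjusted p under 0.05 over all probe sets). The background in this comparison was wide, since 16.7% of all genes were higher and 16.3% lower. The members were chosen with earlier results of these data known, so setting them beside this background is a description and not a test. Among the 8554 brighter genes, which include 31 of the 34, 25.7% were higher and 19.7% lower. The median difference of the 34 genes was 0.52 log2 units, against -0.07 over all genes and 0.05 over the brighter genes. Of the 34 differences, 29 were positive, against 42.4% of all genes and 53.3% of the brighter genes. The genes that rose were 8 of the 11 of beta-oxidation, 2 of the 8 of uptake and the carnitine shuttle, Etfdh, Ucp2, Ppara, Ppargc1b and Plin2.

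With plasma from before NHD, 1 gene (Ppargc1b) was higher than with control plasma and 0 were lower, against 3.75% and 2.09% of all genes. The median difference was 0.50 log2 units, against -0.05 over all genes and 0.045 over the brighter genes. Of the 34 differences, 33 were positive, against 43.2% of all genes and 54.9% of the brighter genes. In limma, 12 members had an unadjusted p under 0.05, and the share of all genes at that p was not computed. The number of members with an adjusted p under 0.05 depended on the fit. It was 22 with array weights and 0 when only the before NHD and control arrays were fitted. Shares of all genes under these fits were not computed. Between after and before NHD plasma, 0 of the 34 genes passed in limma, and the median difference was 0.08 log2 units. An unadjusted p under 0.05 was found for 2 (Ucp2 and Esrra), and the share of all genes at that p was not computed. At an adjusted p under 0.05, the background in that comparison was 0.379% of all genes higher and 0.103% lower. With phenylephrine against control plasma, 2 genes were higher (Plin2 and Eci1) and 3 lower (Fitm2, Acaa2 and Slc25a20). These are smaller shares than the 11.7% and 11.9% of all genes, or 17.1% each of the brighter genes. Against after NHD plasma, 0 were higher and 2 lower (Fitm2 and Acaa2), against 0.662% and 0.689% of all genes. The median difference was -0.43 log2 units, against -0.002 over all genes and -0.035 over the brighter genes, with 3 of 34 differences positive. The comparisons with control plasma share the same 3 control arrays, so their values are given side by side below.

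**Figure D1:**
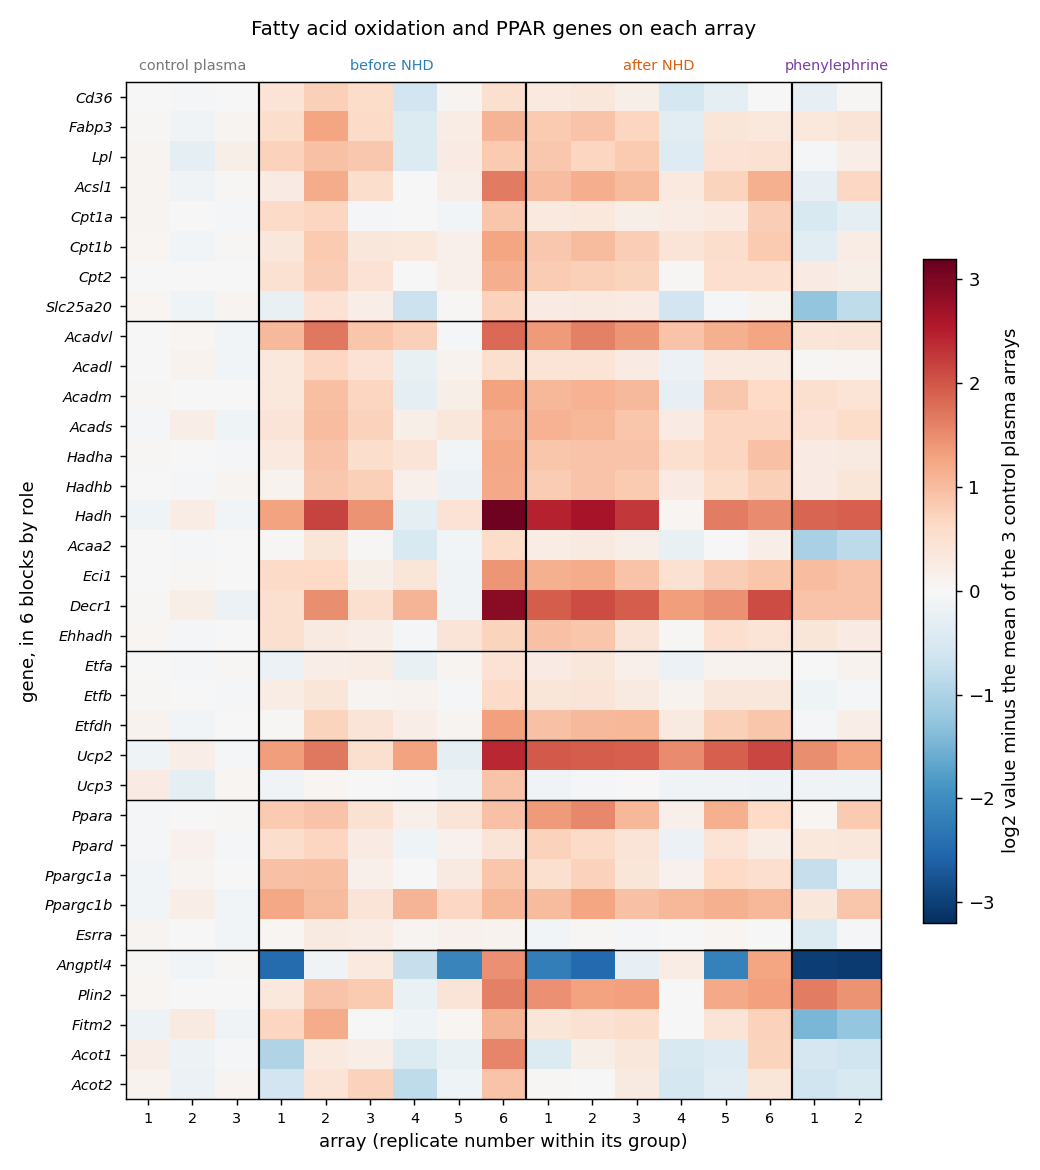
Each cell is the log2 value of a gene (row, in 6 blocks from uptake at the top to storage and thioesterases at the bottom) on an array (column, numbered by replicate within its group) minus that gene's mean over the 3 control plasma arrays. Red is higher and blue lower; before replicate 6 and most after NHD arrays are red in the beta-oxidation block, both arrays numbered 4 are paler, and Angptl4 is blue on several plasma arrays and on both phenylephrine arrays.

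In the carnitine shuttle, the muscle isoform Cpt1b, which makes acylcarnitine at the outer mitochondrial membrane and is the rate-limiting step of entry, read 11.31, 11.17 and 11.28 with control plasma. After NHD arrays read 11.65 at the lowest, 12.07 at the median and 12.26 at the highest, and before NHD arrays 11.41, 11.62 and 12.51. All 12 uremic plasma arrays lay above all 3 control arrays. Cpt1b rose by 0.74 ± 0.21 log2 units after NHD (SE, adjusted p = 0.015), and the difference before NHD was 0.55 ± 0.21 (adjusted p = 0.12). With phenylephrine it read 10.88 and 11.49, on either side of the controls (-0.07 ± 0.27).

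Acsl1, the main acyl-CoA synthetase of heart muscle, read 10.69, 10.50 and 10.64 with control plasma and 10.91, 11.61 and 11.77 (lowest, median, highest) after NHD. Every after NHD array was above the controls, and the rise was 0.88 ± 0.31 (adjusted p = 0.043). Before NHD arrays overlapped the controls, from 10.61 to 12.26 with a median of 11.02 (0.64 ± 0.31, adjusted p = 0.21), and the phenylephrine arrays disagreed, at 10.35 and 11.26.

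Cpt2, which returns acylcarnitine to acyl-CoA inside the mitochondrion, had a difference of 0.57 ± 0.21 after NHD that just missed the threshold (adjusted p = 0.052). Its control arrays were tight at 10.32 to 10.35, and the after NHD arrays ran from 10.37 to 11.16, without overlap. The liver isoform Cpt1a read 10.34 to 10.49 with control plasma, 10.61 to 11.19 after NHD and 9.91 and 10.12 with phenylephrine. None of its differences passed in the 5 comparisons. The largest was the one between phenylephrine and after NHD (-0.75 ± 0.23, adjusted p = 0.16), where the groups did not overlap.

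Slc25a20, the carrier that exchanges acylcarnitine for carnitine across the inner membrane, departed from its neighbours in the shuttle. It read 11.44, 11.25 and 11.47 with control plasma, 10.77, 11.56 and 11.66 after NHD and 10.69, 11.51 and 12.11 before NHD, so that both uremic plasma groups lay around the controls (0.03 ± 0.26 and 0.08 ± 0.26). With phenylephrine it read 10.12 and 10.58, below every other array, and fell by 1.04 ± 0.33 log2 units against control plasma (adjusted p = 0.038). Against after NHD plasma the difference was -1.07 ± 0.30 and did not pass (adjusted p = 0.11).

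The uptake genes did not pass in any of the 5 comparisons. Cd36, the fatty acid translocase of the plasma membrane, differed by 0.01 ± 0.25 between after NHD and control plasma, and its other, dimmer probe set by -0.16. Fabp3, the heart fatty acid binding protein of the cytosol, differed by 0.47 ± 0.31, and Lpl, the lipase that frees fatty acids from lipoproteins, by 0.49 ± 0.29. In all of these the arrays numbered 4 lay lowest in both uremic plasma groups and below the controls. Lpl, for example, read 10.95 and 10.98 on them, against 11.10 to 11.56 with control plasma.

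Beta-oxidation was the block with the most genes called after NHD. Acadvl, the dehydrogenase that starts the breakdown of very long chains, read 10.36, 10.41 and 10.27 with control plasma and 11.27, 11.66 and 11.97 (lowest, median, highest) after NHD. All after NHD arrays lay above the controls, and the rise was 1.29 ± 0.29 log2 units (adjusted p = 0.004). Before NHD arrays read 10.30, 11.32 and 12.15; replicate 5 alone lay among the controls, and the difference of 1.02 ± 0.29 was just short of the threshold (adjusted p = 0.051). With phenylephrine Acadvl read 10.73 and 10.77, between the controls and the after NHD arrays (0.40 ± 0.37 against control).

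The other acyl-CoA dehydrogenases act on shorter chains. Acads, the short-chain enzyme, read 8.26, 8.55 and 8.20 with control plasma and 8.59, 9.12 and 9.45 after NHD, and rose by 0.78 ± 0.21 (adjusted p = 0.011) with no overlap. Acadm, the medium-chain enzyme, read 10.20 to 10.25 with control plasma and 10.85 to 11.34 on the other after NHD arrays, but 9.95 on after replicate 4, below the controls. Its difference was 0.74 ± 0.31 (adjusted p = 0.088). Acadl, the long-chain enzyme, differed by 0.26 ± 0.17 and did not pass.

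Hadha and Hadhb, the alpha and beta subunits of the mitochondrial trifunctional protein, rose together. Hadha read 11.92, 11.89 and 11.84 with control plasma and 12.41, 12.79 and 12.83 after NHD (0.82 ± 0.20, adjusted p = 0.0075). Hadhb read 11.18, 11.13 and 11.27 with control plasma and 11.46, 11.98 and 12.09 after NHD (0.69 ± 0.24, adjusted p = 0.039). Neither gene's after NHD arrays overlapped its control arrays. The dimmer probe set of Hadha rose as well (0.67, adjusted p = 0.034). Before NHD the differences were 0.56 ± 0.20 and 0.49 ± 0.24, and with phenylephrine 0.28 ± 0.26 and 0.32 ± 0.31, none of which passed.

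These subunits are encoded head to head on chromosome 6 of the rat assembly GRCr8, with start sites 301 bases apart, so that their promoter windows (250 bases before to 50 after the start, from RefSeq) overlap. The window of Hadha, chr6:31907551-31907850 on the plus strand, is shown because the capitals mark the 200 bases it shares with the window of Hadhb, which is read from the opposite strand.
Hadha: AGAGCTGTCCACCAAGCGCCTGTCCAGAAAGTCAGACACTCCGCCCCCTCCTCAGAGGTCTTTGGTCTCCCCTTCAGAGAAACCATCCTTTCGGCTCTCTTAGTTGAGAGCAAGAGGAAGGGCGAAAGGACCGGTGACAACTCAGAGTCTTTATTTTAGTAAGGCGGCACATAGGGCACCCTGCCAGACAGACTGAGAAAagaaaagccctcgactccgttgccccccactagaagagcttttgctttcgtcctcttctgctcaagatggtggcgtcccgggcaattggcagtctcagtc

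Hadh, the dehydrogenase that acts on the hydroxyacyl-CoA of shorter chains, had one of the widest ranges of the 34 genes. It read 8.64, 9.02 and 8.68 with control plasma, 8.85, 10.72 and 11.41 after NHD, 8.46, 10.14 and 11.88 before NHD, and 10.64 and 10.69 with phenylephrine. After replicate 4 lay among the controls and the other after NHD arrays at 10.29 or more. The rise after NHD was 1.76 ± 0.60 (adjusted p = 0.039), while differences of 1.35 ± 0.60 before NHD (adjusted p = 0.18) and 1.88 ± 0.78 with phenylephrine (adjusted p = 0.10) did not pass. Each SE is pooled over the 4 groups. In a limma fit of only the phenylephrine and control arrays the adjusted p was 0.00032. Between phenylephrine and after NHD the difference was 0.13 ± 0.70 and did not pass.

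Decr1 and Eci1 are the auxiliary enzymes that let unsaturated fatty acids through beta-oxidation. Decr1, a dienoyl-CoA reductase, read 8.20, 8.36 and 7.97 with control plasma and 9.50, 10.11 and 10.27 after NHD, and rose by 1.80 ± 0.44 log2 units (adjusted p = 0.0064). All after NHD arrays were more than 1 log2 unit above the highest control. Before NHD it read 8.05, 8.97 and 11.05, the top value on replicate 6 and the lowest on replicate 5 (1.05 ± 0.44, adjusted p = 0.15), and with phenylephrine 9.09 and 9.08 (0.91 ± 0.57, adjusted p = 0.28).

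Eci1, an enoyl-CoA isomerase, was the gene of beta-oxidation that rose in 2 comparisons. It read 9.48, 9.52 and 9.46 with control plasma, 9.96, 10.38 and 10.66 after NHD, and 10.47 and 10.39 with phenylephrine. Both sets lay wholly above the controls, with rises of 0.89 ± 0.24 after NHD (adjusted p = 0.011) and 0.94 ± 0.31 with phenylephrine (adjusted p = 0.041). Before NHD the difference was 0.52 ± 0.24 (adjusted p = 0.19).

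Acaa2, the thiolase that closes the cycle of mitochondrial beta-oxidation, also stayed near the controls with uremic plasma and fell with phenylephrine. It read 12.58, 12.54 and 12.58 with control plasma, 12.32, 12.77 and 12.85 after NHD, 12.07, 12.61 and 13.15 before NHD, and 11.54 and 11.73 with phenylephrine. The uremic plasma arrays lay around the controls (0.11 ± 0.18 after and 0.08 ± 0.18 before NHD), and both phenylephrine arrays lay below all others. Acaa2 fell by 0.93 ± 0.23 with phenylephrine against control plasma (adjusted p = 0.012) and by 1.05 ± 0.21 against after NHD plasma (adjusted p = 0.022). Ehhadh, the bifunctional enzyme of peroxisomal beta-oxidation, read 6.43 to 6.52 with control plasma and 6.51 to 7.40 after NHD (0.54 ± 0.18, adjusted p = 0.031). After replicate 4 overlapped the controls.

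**Figure D2:**
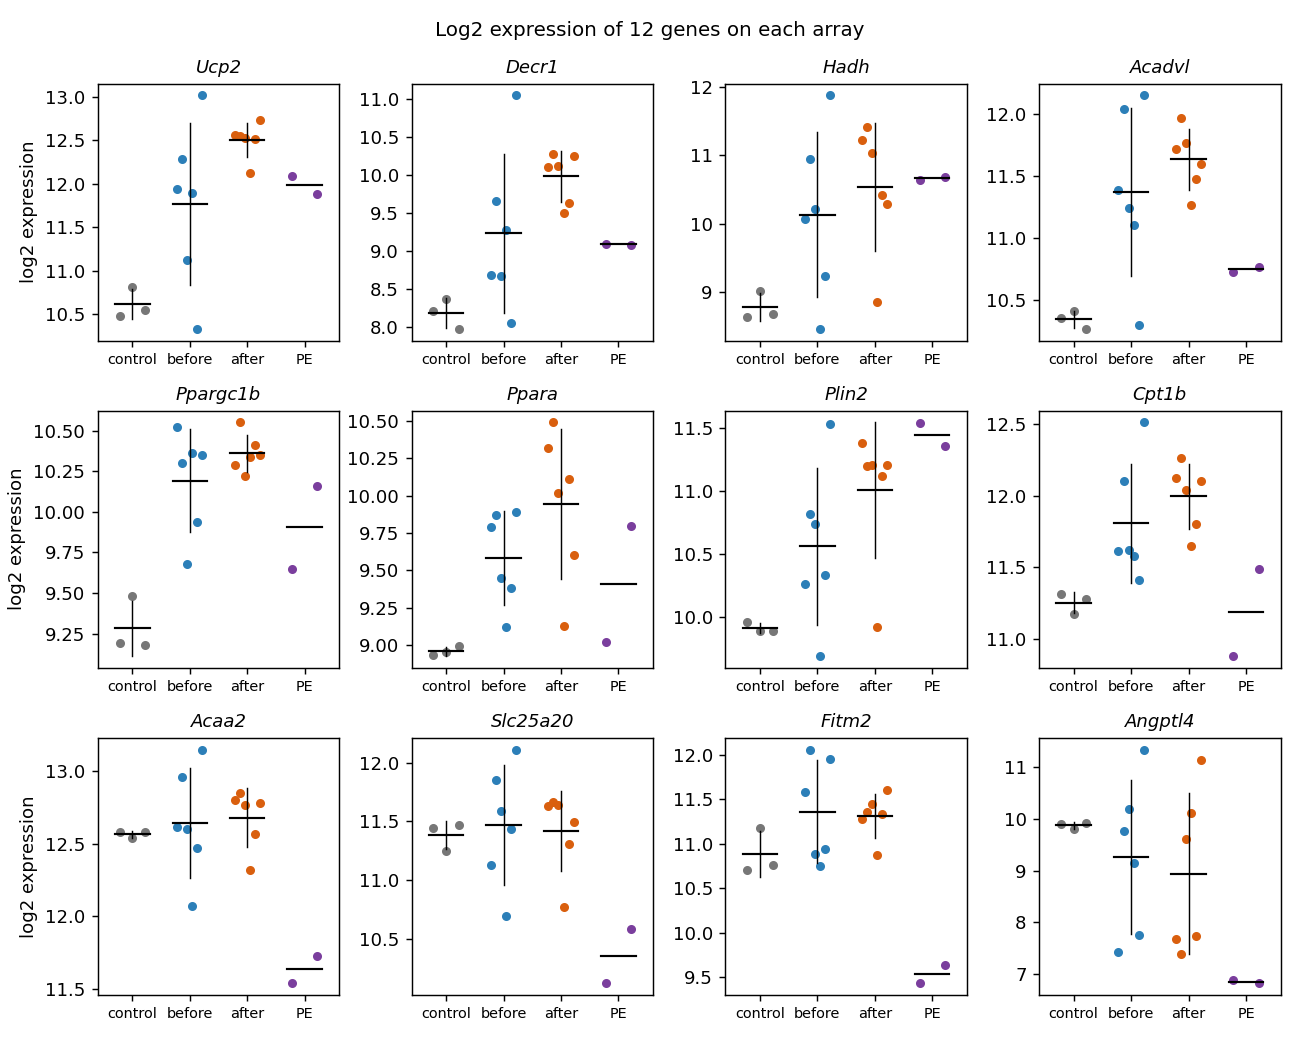
Log2 expression of 12 genes on each array with control plasma, before NHD plasma, after NHD plasma and phenylephrine (PE); horizontal lines are group means and vertical lines ± SD (not drawn for the 2 phenylephrine arrays). In Ucp2, Decr1, Acadvl and Ppargc1b all after NHD points lie above the control points, and in Acaa2, Slc25a20 and Fitm2 both phenylephrine points lie below all others.

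PPARs bind, as a pair with a retinoid X receptor, to direct repeats of the hexamer AGGTCA spaced by 1 base. This repeat, AGGTCANAGGTCA, was searched on both strands of the 300-base promoter windows, which RefSeq gave for 28 of the 34 genes (GRCr8). With up to 2 mismatches, 4 of the 28 genes held it (14.3%), against 4.1% of 27457 rat genes with a window, and with up to 1 mismatch 1 gene did (3.6%, against 0.5%). No exact repeat was found, and none of the windows held TCAAGGTCA, the element of estrogen-related receptors (0.4% of all genes). The hexamer AGGTCA, which overlaps both motifs, was in 4 windows, or 14.3%, against 16.9% of all genes. The 4 matching stretches are shown, each in the orientation of the repeat and with all its letters in capitals, because the genes that hold them differ in their values.
Acadvl: AGGTCAGTGGTCA
Etfa: AGGGCAAAGGTAA
Slc25a20: AGGTGAAAGGTCG
Ucp3: AGGTTTCAGGTCA

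Of these genes, Acadvl rose after NHD, Slc25a20 fell with phenylephrine, and Etfa and Ucp3 did not pass in any of the 5 comparisons. The match in Acadvl has 1 mismatch and begins 17 bases before the start site. Its window, chr10:55236656-55236955 on the minus strand of GRCr8, is shown 5′ to 3′ with that match in capitals. Such a match is a likeness of letters in the window and not a measured site.
Acadvl: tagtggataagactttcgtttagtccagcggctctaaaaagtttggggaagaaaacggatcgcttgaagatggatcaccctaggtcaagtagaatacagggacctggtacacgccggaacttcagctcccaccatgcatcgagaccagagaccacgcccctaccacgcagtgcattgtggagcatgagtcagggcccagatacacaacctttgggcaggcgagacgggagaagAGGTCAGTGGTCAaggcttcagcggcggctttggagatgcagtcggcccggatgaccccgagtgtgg

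Of the genes that pass electrons from the dehydrogenases on to ubiquinone, Etfdh, the dehydrogenase in the inner membrane, rose after NHD. It read 10.62, 10.42 and 10.49 with control plasma and 10.80, 11.42 and 11.57 after NHD, without overlap (0.83 ± 0.23, adjusted p = 0.015). The phenylephrine arrays read 10.47 and 10.72, around the controls. Etfb, the beta subunit of the flavoprotein, differed by 0.32 ± 0.12 after NHD (adjusted p = 0.057), and its arrays after NHD, at 11.84 to 12.14, were above the controls, at 11.68 to 11.75. The alpha subunit Etfa differed by 0.14 ± 0.14.

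Ucp2, an inner membrane carrier that is related to the uncoupling protein of brown fat, had the largest difference of the 34 genes after NHD. It read 10.48, 10.81 and 10.55 with control plasma and 12.13, 12.54 and 12.74 after NHD, and rose by 1.89 ± 0.38 log2 units, or 3.71-fold (adjusted p = 0.0021). Before NHD arrays filled the whole span, from 10.33 on replicate 5, below the controls, through a median of 11.92 to 13.02 on replicate 6 (1.15 ± 0.38, adjusted p = 0.084). With phenylephrine it read 12.09 and 11.88, above the controls and below the after NHD arrays (1.37 ± 0.50, adjusted p = 0.064).

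Between after and before NHD plasma the difference of Ucp2 was 0.74 ± 0.31, with an unadjusted p of 0.031 and an adjusted p of 0.22. Ucp3, which lies next to Ucp2 on chromosome 1 of GRCr8, read 6.42 to 6.98 with control plasma, 6.58 to 6.72 after NHD and 6.63 and 6.60 with phenylephrine. These groups overlapped, and its differences from control plasma lay between -0.11 and 0.11. Before replicate 6, at 7.65, stood apart from the other 5 before NHD arrays, which read 6.56 to 6.79.

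Among the regulators, the coactivator Ppargc1b had the smallest adjusted p of the 34 genes, in both plasma comparisons. It read 9.19, 9.48 and 9.18 with control plasma, 10.22, 10.35 and 10.55 after NHD and 9.68, 10.33 and 10.52 before NHD. All 12 uremic plasma arrays were above all controls, with rises of 1.08 ± 0.16 after NHD (adjusted p = 0.00052) and 0.91 ± 0.16 before NHD (adjusted p = 0.017). The phenylephrine arrays, at 9.65 and 10.16, lay above the controls too, but the difference of 0.62 ± 0.21 missed the threshold (adjusted p = 0.051).

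Ppara, the PPAR that governs fatty acid oxidation in heart and liver, read 8.93, 8.95 and 8.99 with control plasma, 9.13, 10.06 and 10.49 after NHD and 9.12, 9.62 and 9.89 before NHD. Every uremic plasma array was above the controls, the arrays numbered 4 by the least. The rise after NHD was 0.98 ± 0.26 (adjusted p = 0.010), and the difference before NHD was 0.62 ± 0.26 (adjusted p = 0.15). With phenylephrine the replicates read 9.02 and 9.80. Ppard, the PPAR with the broadest tissue range, differed by 0.37 ± 0.19 after NHD and did not pass.

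Ppargc1a, the best known coactivator of mitochondrial genes, differed by 0.49 ± 0.21 after NHD (adjusted p = 0.099) and 0.53 ± 0.21 before NHD (adjusted p = 0.14). After NHD arrays, at 11.09 to 11.68, lay above the controls, at 10.86 to 11.04. The phenylephrine arrays, at 10.22 and 10.81, lay below the controls, and the difference between phenylephrine and after NHD was -0.93 ± 0.25 (adjusted p = 0.096). Esrra, the estrogen-related receptor alpha, was the steadiest of the 34 genes before NHD, with an SD of 0.09. Its values were 8.23 to 8.39 after NHD and 8.39 to 8.61 before NHD, a difference of -0.16 ± 0.07 with an unadjusted p of 0.049 and an adjusted p of 0.27.

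Of the storage genes, Plin2, the coat protein of lipid droplets and a classic PPAR target, rose in 2 comparisons. It read 9.96, 9.89 and 9.89 with control plasma, 9.92, 11.20 and 11.38 after NHD, 9.69, 10.53 and 11.53 before NHD, and 11.54 and 11.36 with phenylephrine. Apart from after replicate 4, which lay among the controls, the after NHD arrays read 11.12 or more. Plin2 rose by 1.09 ± 0.33 after NHD (adjusted p = 0.021) and by 1.54 ± 0.43 with phenylephrine (adjusted p = 0.020). The difference between phenylephrine and after NHD was 0.44 ± 0.38 and did not pass.

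Fitm2, a protein of the endoplasmic reticulum needed for normal droplet formation, had the opposite pattern with phenylephrine. It read 10.71, 11.18 and 10.76 with control plasma, 10.87, 11.34 and 11.61 after NHD, 10.75, 11.26 and 12.06 before NHD, and 9.43 and 9.63 with phenylephrine. Both phenylephrine arrays lay more than 1 log2 unit below every other array. Fitm2 fell by 1.35 ± 0.34 against control plasma (adjusted p = 0.012) and by 1.79 ± 0.30 against after NHD plasma (adjusted p = 0.0095), and its plasma differences of 0.43 and 0.48 did not pass.

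Angptl4, a secreted inhibitor of lipoprotein lipase and another PPAR target, had the widest spread within groups. Control arrays were tight at 9.91, 9.80 and 9.92. Before NHD replicates 1 to 6 read 7.42, 9.76, 10.19, 9.14, 7.76 and 11.34, and after NHD replicates 1 to 6 read 7.68, 7.39, 9.61, 10.11, 7.73 and 11.13. The uremic plasma arrays thus lay on both sides of the controls, in both groups, with an SD of 1.49 and 1.55 log2 units (n = 6 each) against 0.07 (n = 3) with control plasma. Neither difference passed (-0.61 ± 0.84 before and -0.93 ± 0.84 after NHD). With phenylephrine Angptl4 read 6.88 and 6.82, below every other array, and the difference from control plasma was -3.03 ± 1.09 (adjusted p = 0.063). That SE is pooled over the 4 groups and so includes the wide spread of the uremic plasma arrays. In a limma fit of only the phenylephrine and control arrays the adjusted p was 9.8e-05, so whether Angptl4 passed depended on the fit.

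The thioesterases Acot1 and Acot2, which free fatty acids from acyl-CoA in the cytosol and in mitochondria, are neighbouring and closely related genes on chromosome 6, so that their probes may not fully separate them. Acot1 was dim, at 3.89 to 6.42 over all arrays. Acot2 read 11.41 to 11.72 with control plasma, a median of 11.63 after NHD, and 10.97 and 11.13 with phenylephrine. Neither gene passed in any of the 5 comparisons.

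**Figure D3:**
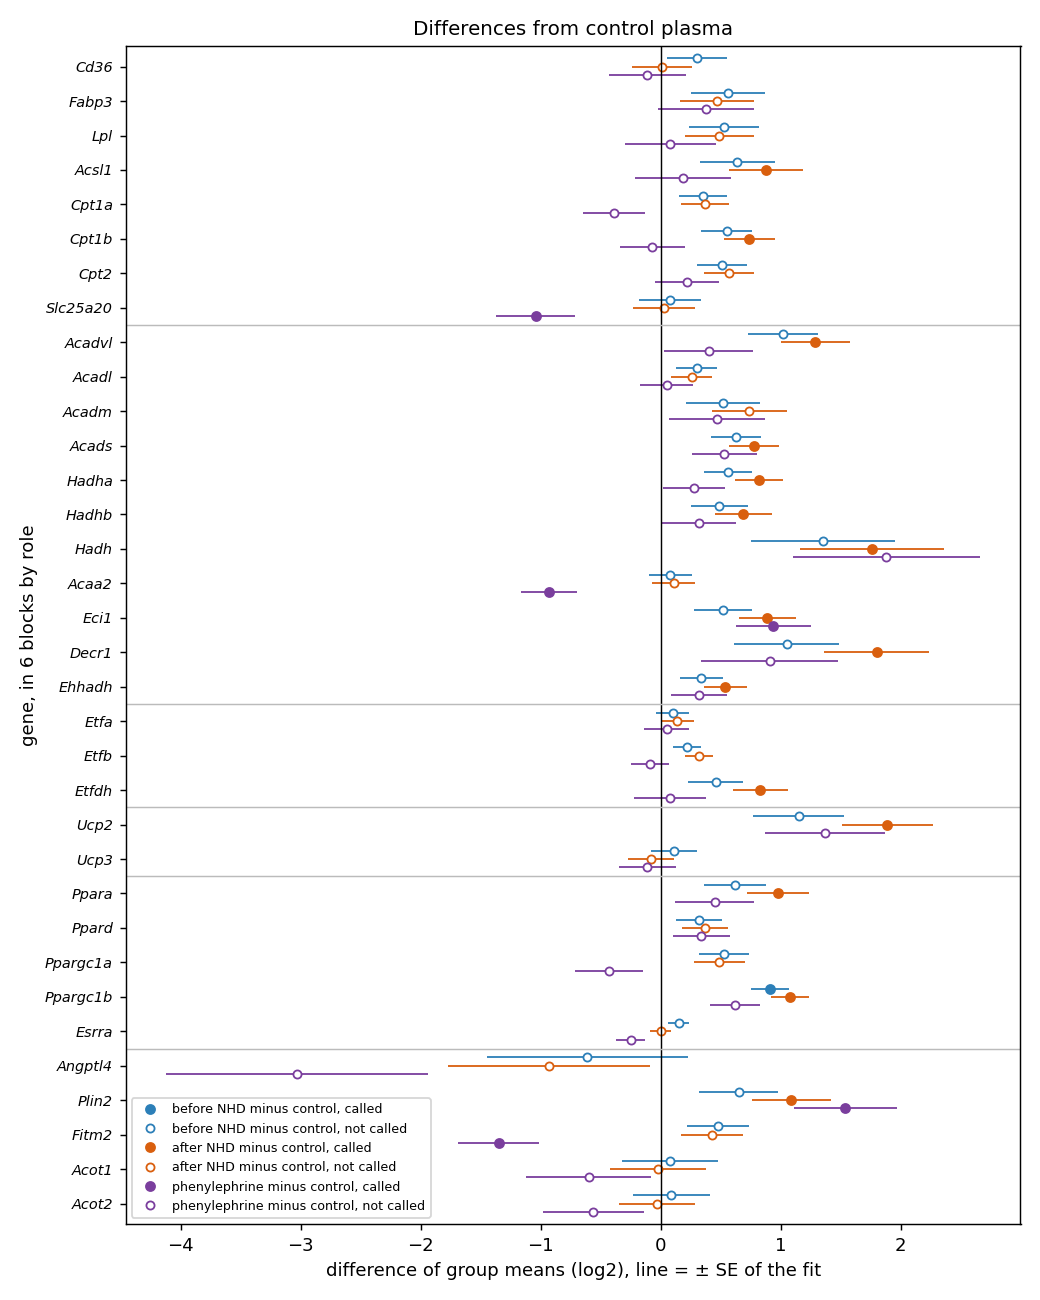
Difference of group means (log2 units, x axis) from control plasma for each of the 34 genes (y axis), with the SE of the fit as a line; filled points passed an adjusted p of 0.05. The filled after NHD points all lie to the right of 0, while phenylephrine has filled points on both sides; 1 before NHD point, Ppargc1b, is filled.

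By group means, after NHD was the highest of the 4 groups for 19 of the 34 genes, against 18.9% of all genes and 24.8% of the brighter genes. Before NHD was the highest for 11, against 9.7% and 10.7%. The phenylephrine mean was the highest for Hadh, Eci1 and Plin2, and the control mean for Angptl4. Control plasma was the lowest group for 21 genes (31.2% of all genes and 41.6% of the brighter genes). Phenylephrine was the lowest for 13, near its shares of 32.0% and 32.8%. Before and after NHD arrays overlapped for every member except Esrra. The 2 phenylephrine and 3 control arrays did not overlap for many members, but groups of so few arrays separate easily. The shares of all genes without overlap were not computed. These counts are descriptions without a test.

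Spread within groups was wide for many of the genes. The median SD of the 34 genes was 0.490 log2 units before NHD and 0.288 after NHD, against 0.299 and 0.177 over the brighter genes. With control plasma it was 0.092, against 0.109. The same arrays stood at the ends of the range for many genes. Before replicate 6 held the highest value of its group for 25 of the 34 genes, and before replicate 4 the lowest for 19 and before replicate 5 for 10. After replicate 4 held the lowest value of its group for 29 genes and after replicate 2 the highest for 18. The mean of the 34 genes was 10.12 to 10.16 with control plasma and 10.13 and 10.29 with phenylephrine. Before NHD it was 10.45, 10.95, 10.58, 10.14, 10.18 and 11.31 on replicates 1 to 6, and after NHD 10.84, 10.91, 10.85, 10.26, 10.63 and 10.85. Before replicates 4 and 5 thus lay with the controls, and after replicate 4 stood nearest to them in its group.

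**Figure D4:**
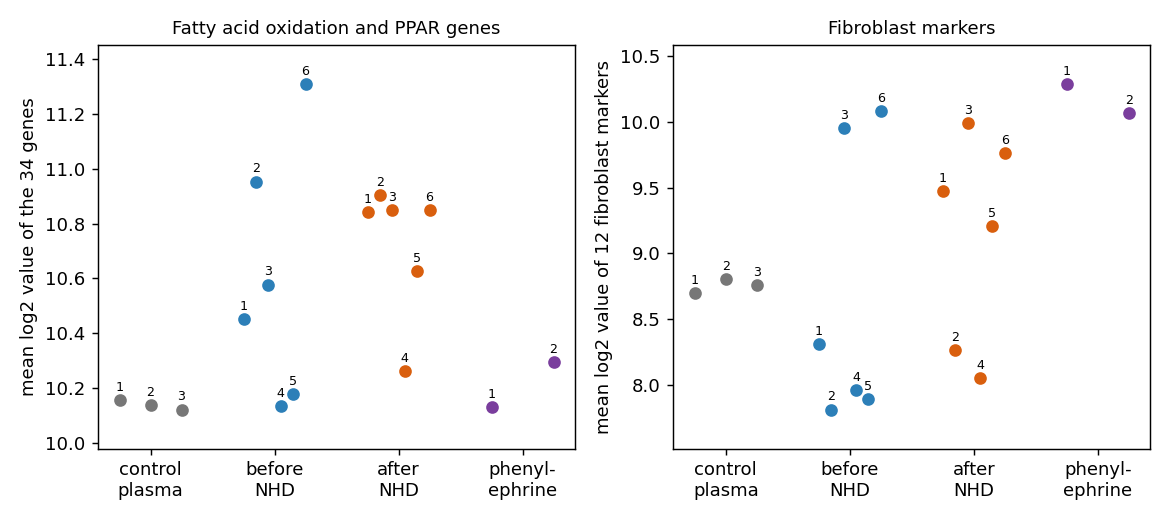
Left, the mean log2 value of the 34 genes on each array (point, numbered by replicate) in the 4 groups; right, the mean log2 value of 12 fibroblast markers on the same arrays. Left, before NHD runs from 10.14 on replicate 4 to 11.31 on replicate 6, and the controls lie at 10.12 to 10.16; right, before and after arrays fall on both sides of the controls.

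Some markers of the cells in the culture moved as well. Of the 14 ventricular myocyte markers, 7 rose after NHD against control plasma, among them Mybpc3 (1.17) and Ryr2 (1.60), 3 rose before NHD and 3 with phenylephrine, and none fell. The share after NHD was 50%, against 16.7% of all genes and 25.7% of the brighter ones. It was 21.4% before NHD, against 3.75% and 6.13%, and 21.4% with phenylephrine, against 11.7% and 17.1%. The medians of the list were 0.27, 0.17 and 0.19. Of 4 atrial myocyte markers, 3 rose after NHD, 1 before NHD and 2 with phenylephrine, none fell, and the medians were 1.31, 0.89 and 0.86. Of 6 smooth muscle markers, none rose, and 1 fell after NHD and 1 with phenylephrine. Their medians were -0.27 after NHD, -0.10 before NHD and -0.37 with phenylephrine. Of 8 endothelial markers, 1 rose after NHD, 1 before NHD and 2 with phenylephrine, and none fell. Of the 12 fibroblast markers, 1 (S100a4, 1.35) rose after NHD, and the median of the list was 0.37 after NHD, -0.11 before NHD and 1.23 with phenylephrine. The list's summed level ran from 104.4 to 105.6 with control plasma, 93.7 to 120.9 before NHD, 96.6 to 119.9 after NHD and 120.9 to 123.5 with phenylephrine. Before replicate 2 and after replicate 2, both among the highest arrays for the 34 genes, were low in fibroblast markers (7.81 and 8.26), whereas before replicate 6 was high in both. The uremic plasma arrays lowest for the 34 genes, before replicates 4 and 5 and after replicate 4, were low in fibroblast markers as well (7.96, 7.89 and 8.05). In such bulk cultures, fewer cells of a type and less RNA per cell cannot be told apart, and the part of cell composition in the members' differences was not tested.

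The count after NHD changed with the arrays and terms in the fit, and shares of all genes were not computed for these other fits. It was 9 without control replicate 1 and 8 without control replicate 3, and 2 (Ucp2 and Ppargc1b) when each array's SD entered the fit. That SD was lower in control replicates 1 and 3 than on any after NHD array. With it in the fit, the differences of Ppara and Ehhadh were 0.94 and 0.57 (0.98 and 0.54 without it), and those of Acsl1, Etfdh and Decr1 were 0.50, 0.49 and 1.04 (0.88, 0.83 and 1.80 without it). The cause was not tested. The count was 23 without both arrays numbered 4. Cpt1b, Acadvl, Hadha, Eci1, Decr1, Ucp2, Ppara and Ppargc1b passed whichever array was left out. Acads lost its call without control replicate 1 or 3 (adjusted p = 0.0543 and 0.0584), Etfdh without control replicate 3 (0.0539), and Plin2 without control replicate 1, 2 or 3 (0.067, 0.054 and 0.0708). The difference of Plin2 was then 1.12, 1.08 and 1.08, against 1.09 with all arrays, and that of Etfdh 0.82, against 0.83. Ehhadh lost it without after replicate 1 or 2 or any control (up to 0.0935). Acsl1, Hadhb and Hadh lost it without any one of the controls or of after replicates 1, 2, 3, 5 and 6 (up to 0.109, 0.115 and 0.126), and Acsl1 also without before replicate 3 (0.0504). Without after replicate 4, Cpt2, Acadm, Etfb and Ppard passed as well.

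The other comparisons depended on single arrays too. Before NHD, Ppargc1b lost its call without control replicate 1 (adjusted p = 0.14) or 3 (0.125), and without before replicate 5 the count was 7, with Acadvl, Ucp2, Decr1, Hadha, Acads and Cpt1b added. Without before replicate 6, 4 genes were higher after than before NHD. These were Decr1 (1.12, adjusted p = 0.012), Ucp2 (0.99, adjusted p = 0.0302), Eci1 (0.55, adjusted p = 0.0266) and Etfdh (0.54, adjusted p = 0.0303). The array left out held the highest before NHD value of each of these genes, so leaving it out lowers their before NHD means. The share of all genes in that fit was not computed. With phenylephrine, 0 genes passed against control plasma or after NHD plasma when either of its arrays was left out, where the lone array is assumed to vary like the other groups, and against control plasma 3 passed without control replicate 1 and 2 without control replicate 3. Slc25a20 and Eci1 also lost their calls against control plasma without control replicate 2 (adjusted p = 0.0542 and 0.0683), and Eci1 without after replicate 3, 5 or 6 (up to 0.0523), which enter the estimate of the spread.

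Other genes of the same pathways were read from lists of gene names, whose counts are to be set beside the shares of all genes given above, 16.7% higher and 16.3% lower after NHD and 11.7% and 11.9% with phenylephrine, both against control plasma. Of 16 further genes of mitochondrial oxidation, 7 rose after NHD against control plasma (43.8%) and 0 fell. They included Pcca and Pccb, the subunits of propionyl-CoA carboxylase (1.41 ± 0.25 and 0.69 ± 0.18), and Mecr, an enoyl-CoA reductase of mitochondrial fatty acid synthesis (1.21 ± 0.27). With phenylephrine 3 rose and 0 fell, again with Pcca (1.67 ± 0.32) and Pccb (0.97 ± 0.23), and with Ivd, which breaks down leucine (1.61 ± 0.34). The list's median was 0.39 after NHD and 0.41 with phenylephrine, against -0.07 and -0.06 over all genes.

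Of 16 genes of peroxisomal oxidation, 6 rose (37.5%) and 3 fell (18.8%) after NHD, the latter a share near that of all genes. Phyh and Hacl1, which carry out alpha-oxidation of branched chains, rose by 1.84 ± 0.29 and 1.30 ± 0.21 after NHD, by 1.35 ± 0.29 and 0.97 ± 0.21 before NHD, and by 1.56 ± 0.37 and 1.36 ± 0.27 with phenylephrine. Amacr, a racemase of the same branched chains, fell after NHD (-0.74 ± 0.17) and with phenylephrine (-0.90 ± 0.22), and Pex7, an import receptor of peroxisomes, fell after NHD (-0.97 ± 0.22).

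Of 18 other genes of uptake, activation and carnitine, 3 rose (16.7%) and 2 fell (11.1%) after NHD, shares no higher than those of all genes. Slc27a4, a fatty acid transport protein, rose by 1.64 ± 0.35, and Acsl5, a synthetase of the mitochondrial and endoplasmic reticulum membranes, fell by 1.36 ± 0.25. Acsl3, the synthetase linked to lipid droplets, was higher with phenylephrine than with control plasma (0.89 ± 0.19) and than after NHD (0.98 ± 0.17, adjusted p = 0.010). Of 13 genes of malonyl-CoA, the inhibitor of the carnitine shuttle, and of AMP-activated protein kinase, 6 rose (46.2%) and 1 fell (7.69%) after NHD. Acaca and Acacb, the acetyl-CoA carboxylases that make malonyl-CoA, rose by 0.62 ± 0.11 and 1.43 ± 0.38, and Prkab2, a subunit of the kinase, fell by 0.72 ± 0.15.

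Among 20 further genes of lipid droplets and lipolysis, 4 rose and 4 fell after NHD (20% each), near the shares of all genes, and 1 rose (5.0%) and 4 fell (20%) with phenylephrine. Mgll, monoacylglycerol lipase, rose by 1.89 ± 0.41 after NHD and 2.13 ± 0.53 with phenylephrine. Pnpla2, the first lipase of droplet breakdown, fell with phenylephrine against control plasma (-1.04 ± 0.17) and against after NHD plasma (-0.89 ± 0.15), and its activator Abhd5 fell after NHD (-0.45 ± 0.10) and with phenylephrine (-0.56 ± 0.12). Dgat2, which makes triglyceride, fell with phenylephrine (-1.23 ± 0.27).

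Of 23 known PPAR targets outside the 34 genes, 3 rose and 3 fell after NHD (13.0% each), close to the shares of all genes, with a median of -0.03. With phenylephrine 0 rose and 3 fell (13.0%), with a median of -0.26. Mlycd, which removes malonyl-CoA, rose by 0.66 ± 0.18 after NHD, and Acot7, an acyl-CoA thioesterase, by 1.86 ± 0.49. The transcription factor Klf10 fell by 1.90 ± 0.40 after NHD and fell by 2.62 ± 0.52 with phenylephrine. Pdk4, the kinase that shuts off glucose oxidation, fell with phenylephrine (-1.26 ± 0.39). Of 21 partners and coregulators of PPARs, 4 rose (19.0%) and 3 fell (14.3%) after NHD, again near the shares of all genes, with Ncoa3, a coactivator, at 0.92 ± 0.26 and Gabpa, a factor of mitochondrial genes, at -0.70 ± 0.12.

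Of 5 genes of ketone body use, Bdh1, the dehydrogenase of hydroxybutyrate, rose by 2.33 ± 0.49 after NHD and by 2.24 ± 0.63 with phenylephrine, and Slc16a1, a monocarboxylate carrier, rose by 0.40 ± 0.10 after NHD. Of 8 genes of flavin supply and ubiquinone, 2 rose and 2 fell after NHD (25% each), with Slc25a32, a mitochondrial carrier for folate and flavin, at -1.19 ± 0.22. Before NHD, 8 of the 137 genes of the 9 lists passed against control plasma. This is near the shares of all genes, 3.75% higher and 2.09% lower. The 8 genes came from 4 of the lists. These were 3 of 16 in peroxisomal oxidation (all higher), 2 of 18 in uptake, activation and carnitine (1 higher, 1 lower), 2 of 13 in the malonyl-CoA list (both higher) and 1 of 23 other PPAR targets (Gpd1, 1.07 ± 0.26, higher). Between after and before NHD, 0 of the 137 genes of these 9 lists passed in limma, against 0.379% of all genes higher and 0.103% lower. An unadjusted p under 0.05 was found for 28, and the share of all genes at that p was not computed.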

How the data were processed

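RNA of 17 samples was read on Affymetrix arrays, 1 per sample. The deposited values are log2 expression values that the authors made with RMA, per the submitters' processing notes; its version is not given in the sources used here. RMA makes the arrays' distributions alike, which takes away any shift common to most genes and compresses values near the floor and ceiling. Of 29214 probe sets, 15310 had 1 gene symbol in the platform annotation, 323 several and 13581 none, and symbols were updated with an NCBI RefSeq gene table (GRCr8). Groups came from the sample titles, and for 2 before NHD titles with 2 replicate numbers the later number was taken.

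The 4 groups of all 17 arrays were fitted together, with no covariate, by lmFit and eBayes of limma 3.58.1 in R 4.3.3, and two-sided p-values were adjusted by Benjamini-Hochberg over 29214 probe sets (threshold 0.05). The background counts use 1 probe set per gene; brighter genes are those whose mean is at or above the median probe set. Named genes are all 34 members and, of each other list described, up to 4 genes by smallest unadjusted p per comparison. The members and lists were chosen with earlier results of these data known. Alternatives were fits of only the groups compared, the replicate number as a block, a trended robust prior, array weights, brighter probe sets, 1 probe set per gene, the mean of a gene's probe sets, a second quantile normalization, a term for each array's SD, no arrays numbered 4, and each array left out in turn.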

Additional observations from a re-analysis of the deposited data

Results flagged for a closer look

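Of 68 gene and group combinations with 6 arrays, 9 had an array far from the other 5 by Dixon's test, which chance alone flags in about 1 of 20 groups. After replicate 4 was the low array in 7 of them. It read 10.98 for Lpl (others 11.84 to 12.24), 10.37 for Cpt2 (10.87 to 11.16), 12.07 for Acadl (12.52 to 12.71) and 9.95 for Acadm (10.85 to 11.34). It also read 10.80 for Etfdh (11.28 to 11.57), 12.13 for Ucp2 (12.52 to 12.74) and 9.92 for Plin2 (11.12 to 11.38). In the same group, after replicate 6 was high for Cpt1a, at 11.19 (others 10.61 to 10.74). In the before NHD group, replicate 6 was high for Ucp3, at 7.65 (others 6.56 to 6.79). The 7 low values come from 1 array, so they are not separate events.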

How the results depend on the processing

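No difference of a member that passed changed sign under any alternative, and the medians over the 34 genes stayed within 0.43 to 0.74 log2 units after NHD against control plasma, 0.33 to 0.60 before NHD against control, 0.01 to 0.19 after against before NHD, 0.02 to 0.23 for phenylephrine against control and -0.53 to -0.30 for phenylephrine against after NHD. Shares of all genes under the alternatives were not computed, so a shift of the members cannot be told from a change over all genes. The numbers of members called moved more than the medians. With array weights they were 25 after NHD against control, 22 before NHD against control, 11 for phenylephrine against control and 11 for phenylephrine against after NHD. With fits of only the groups compared they were 0 before NHD, 17 for phenylephrine against control (10 higher, 7 lower) and 6 for phenylephrine against after NHD. The brighter probe sets gave 2 before NHD and 8 for phenylephrine against control. Testing 1 probe set per gene, the mean of a gene's probe sets and a second quantile normalization each gave 2 before NHD. A term for each array's SD gave 2 after NHD and 0 before NHD against control. Without the arrays numbered 4 the counts were 23 after NHD, 7 before NHD and 4 for phenylephrine against after NHD. Leaving out each array in turn gave 8 to 19 after NHD, 0 to 7 before NHD, 0 to 4 after against before NHD, 0 to 7 for phenylephrine against control and 0 to 3 for phenylephrine against after NHD. The causes of these shifts were not tested. With the replicate block the counts were 23 after NHD, 18 before NHD, 8 for phenylephrine against control and 8 for phenylephrine against after NHD. The labels do not say that the numbers pair the samples, and the deviations of same-numbered before and after arrays correlated at 0.10, 0.42, 0.60, 0.57, -0.03 and 0.25 over probe sets for numbers 1 to 6, so the block is not used elsewhere.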
